A study of Mus musculus with 16 samples.

Results

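The genes described here carry nitric oxide and cyclic GMP signals: the nitric oxide synthases Nos1, Nos2 and Nos3, the soluble guanylyl cyclase subunits Gucy1b1 and Gucy1a2, the cyclic GMP-dependent kinase Prkg1, the phosphodiesterase Pde5a and the natriuretic peptide receptors Npr1, Npr2 and Npr3. A probe set, the group of short probes that reads 1 transcript, was taken where the array's annotation gave it exactly 1 gene symbol and that symbol was 1 of these 10. All 10 genes were found, in 20 of the 45037 probe sets tested and among 18193 genes. Nos1 had 4 probe sets, Pde5a and Npr3 had 3 each, Gucy1b1, Gucy1a2 and Prkg1 had 2 each, and Nos2, Nos3, Npr1 and Npr2 had 1 each. Expression was measured on 16 Affymetrix arrays from mice aged 30 days, in 4 groups of 4: ascending aorta of Eln+/+ mice, ascending aorta of Eln+/- mice, aortic valve of Eln+/+ mice and aortic valve of Eln+/- mice. Eln encodes elastin, and the Eln+/- mice carry 1 working copy of it in every cell. No mouse was given a treatment. Each array held 1 specimen of 1 animal, and a valve specimen held the annulus and root besides the cusps, so it was not cusp tissue alone.

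Nitric oxide is made from arginine by the synthases, of which Nos3 is the endothelial, Nos2 the inducible and Nos1 the neuronal form. It binds the heme of soluble guanylyl cyclase, a dimer of an alpha and a beta subunit that makes cyclic GMP in smooth muscle. Natriuretic peptides reach the same messenger by another route, because Npr1 and Npr2 are receptors that are themselves guanylyl cyclases, while Npr3 mainly clears the peptides. Cyclic GMP activates Prkg1, which relaxes vascular smooth muscle, and Pde5a breaks cyclic GMP down.

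The members that differed between tissues were Gucy1b1, Pde5a and Npr1, all lower in the valve than in the aorta of Eln+/- mice, and Gucy1a2 is the cyclase subunit whose values lay the other way. Their promoter windows are printed so that these 4 genes can be seen side by side. Each runs from 250 bases before to 50 after the gene's start, 5′ to 3′ on the gene's strand, from RefSeq on GRCm38.p6: Gucy1b1 at chr3:82074662-82074961 on the minus strand, Pde5a at chr3:122728908-122729207 on the plus strand, Npr1 at chr3:90465817-90466116 on the minus strand and Gucy1a2 at chr9:3532099-3532398 on the plus strand. Capitals mark the letters of a GC box, GGGCGG, or a CCAAT box, CCAAT, on either strand.
Gucy1b1: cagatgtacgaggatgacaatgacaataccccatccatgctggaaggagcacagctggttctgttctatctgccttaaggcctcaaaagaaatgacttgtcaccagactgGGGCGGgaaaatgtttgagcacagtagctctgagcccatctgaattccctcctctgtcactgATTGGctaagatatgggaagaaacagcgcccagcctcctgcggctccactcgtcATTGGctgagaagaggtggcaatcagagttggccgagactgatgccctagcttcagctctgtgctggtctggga
Pde5a: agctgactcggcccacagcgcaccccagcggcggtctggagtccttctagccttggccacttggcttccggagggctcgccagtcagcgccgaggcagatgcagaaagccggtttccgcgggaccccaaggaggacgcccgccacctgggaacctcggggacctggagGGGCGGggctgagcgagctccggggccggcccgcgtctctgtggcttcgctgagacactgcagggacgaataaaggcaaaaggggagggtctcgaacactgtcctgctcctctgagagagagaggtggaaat
Npr1: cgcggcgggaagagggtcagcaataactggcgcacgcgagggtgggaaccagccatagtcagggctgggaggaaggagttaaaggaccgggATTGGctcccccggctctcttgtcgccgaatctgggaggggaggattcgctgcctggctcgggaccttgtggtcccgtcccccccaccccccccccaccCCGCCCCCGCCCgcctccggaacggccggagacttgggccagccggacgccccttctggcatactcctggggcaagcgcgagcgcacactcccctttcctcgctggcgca
Gucy1a2: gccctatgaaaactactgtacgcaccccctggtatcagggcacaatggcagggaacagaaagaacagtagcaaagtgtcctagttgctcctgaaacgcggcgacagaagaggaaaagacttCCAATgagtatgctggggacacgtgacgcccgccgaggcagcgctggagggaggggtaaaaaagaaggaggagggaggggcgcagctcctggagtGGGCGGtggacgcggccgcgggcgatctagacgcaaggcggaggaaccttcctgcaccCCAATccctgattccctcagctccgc
Each of the 4 windows held a GC box, which 35.7% of the 32851 promoter windows of the same length in the table also hold. Npr1 had 2 GC boxes and 1 CCAAT box. Gucy1b1 and Gucy1a2 had 1 GC box and 2 CCAAT boxes each. Pde5a had 1 GC box and no CCAAT box, a motif found in 37.4% of all windows. In Gucy1b1 the GC box began at base -140 and the CCAAT boxes at -78 and -24, counted from the gene's start, whereas in Gucy1a2 1 of the CCAAT boxes began at base 24 after it. None of the 4 windows held the TATA box TATAAA, present in 13.6% of all windows, or the CArG box, the motif of serum response factor, present in 1.63%. Gucy1b1, Pde5a and Npr1 were also the 3 members of the list on chromosome 3, which holds 5.06% of the 18032 genes with a known chromosome and 8.14% of the 479 genes with a known chromosome that were lower in the Eln+/- valve than in the Eln+/- aorta.

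For 39780 of the 45037 probe sets, among them every member probe set but the second one of Gucy1a2, the deposited values have a median of 1 over the 16 arrays, so on the log2 scale 0 is the median array. In the other 5257 the median is below 1, and what their values are relative to is not given in the sources used here. A value compares arrays for 1 probe set and never 1 gene with another. These values are called relative levels below. A difference is valve minus aorta or Eln+/- minus Eln+/+, given with its standard error (SE) and the p-value of limma adjusted by the method of Benjamini and Hochberg over all 45037 probe sets, with a threshold of 0.05. Where a gene had several probe sets, the one of highest standard deviation (SD) over the arrays stands for it and is called the shown probe set, and the others are given beside it.

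Several facts of the whole series touch these genes. Transcripts of the heart muscle markers, 16 genes, averaged from 0.57 to 2.52 on the valve arrays and from -3.43 to -0.94 on the aorta arrays. The mean of 12 smooth muscle markers was 0.26 ± 0.13 (SD, n = 4) in the Eln+/+ aorta, 0.04 ± 0.56 in the Eln+/- aorta, -0.20 ± 0.42 in the Eln+/+ valve and -0.92 ± 0.57 in the Eln+/- valve. The mean of 12 endothelial markers was -0.43 ± 0.53, -0.35 ± 0.42, 0.17 ± 0.26 and 0.43 ± 0.26 in the same order. T cell and thymocyte markers averaged 2.13 and 1.14 on Eln+/- aorta replicates 2 and 4 and between -0.27 and 0.23 on the other 14 arrays. Xist was high on all 4 Eln+/- arrays of each tissue and on 1 of 4 Eln+/+ arrays of each tissue, so genotype and the signal of sex could not be fully told apart. The difference of Eln itself, Eln+/- minus Eln+/+, was -1.27 ± 0.34 (SE) in the valve (adjusted p = 0.395, limma) and -0.42 ± 0.34 in the aorta (adjusted p = 0.900, limma), and neither passed. These are whole pieces of tissue, in which fewer cells of a type and less RNA per cell cannot be told apart.

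**Figure D1:**
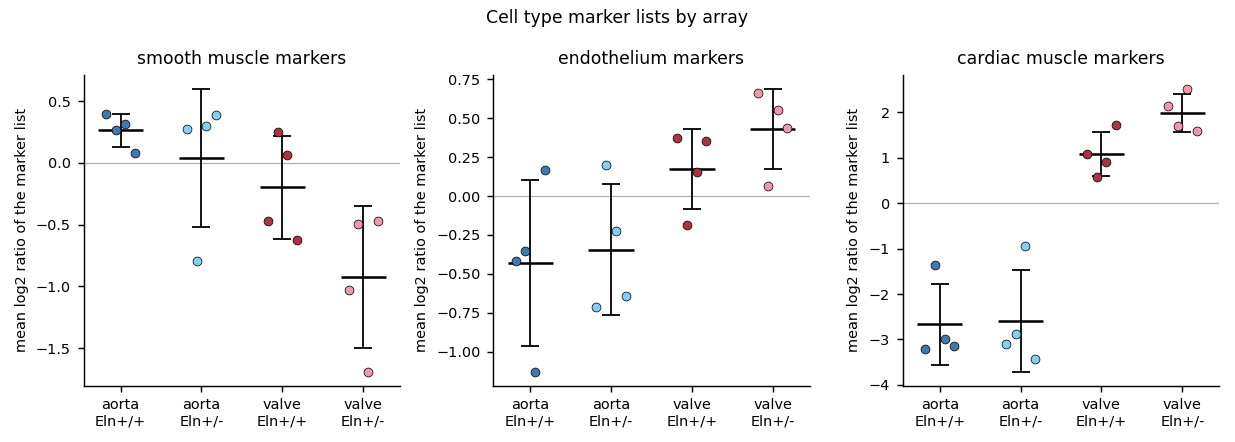
Mean log2 ratio of the smooth muscle, endothelial and cardiac muscle marker lists (y axes, with a separate range for each panel) on each array in the 4 groups; points are arrays in replicate order, horizontal bars are means and error bars are 1 SD, n = 4. Cardiac markers lie above 0 on all 8 valve arrays and below 0 on all 8 aorta arrays, and the smooth muscle mean is lowest on Eln+/- valve replicate 3, at -1.69.

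The comparison of valve with aorta in Eln+/- mice gave the only member calls. Of the 20 member probe sets 5 passed the threshold, all lower in the valve, where 2.54% of all probe sets were lower and 5.81% passed in either direction. They belonged to 3 of the 10 genes, Gucy1b1, Pde5a and Npr1, and by the shown probe set 2.65% of all genes were lower. The median difference of the 20 probe sets was -0.07, against -0.02 over all probe sets, and 12 of the 20 differences were negative. Values did not overlap between the Eln+/- tissues in 6 of the 20 probe sets, against 11% of all probe sets. These 6 were both probe sets of Gucy1b1, both of Gucy1a2, 1 of Pde5a and 1 of Nos1.

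Gucy1b1, the beta subunit without which the soluble cyclase binds no heme, had relative levels of 0.37, 0.08, 0.10 and 0.26 on the 4 Eln+/+ aorta arrays and of 0.05, -0.44, 0.24 and 0.41 on the 4 Eln+/- aorta arrays. On the valve arrays they were -0.70, -0.05, 0.19 and -0.57 in Eln+/+ and -1.56, -0.81, -1.34 and -0.59 in Eln+/- mice. All 4 Eln+/- valve arrays lay below all 8 aorta arrays, while the Eln+/+ valve overlapped both aorta groups. In Eln+/- mice the valve was lower than the aorta by 2.21-fold, a difference of -1.14 ± 0.24 (SE, 95% confidence interval -1.66 to -0.62, adjusted p = 0.0117, limma). The second probe set gave -1.19 ± 0.22 (adjusted p = 0.00516, limma). In Eln+/+ mice the differences of the 2 probe sets were -0.49 ± 0.24 and -0.29 ± 0.22, and neither passed (adjusted p = 0.457 and 0.652, limma). The tissue difference itself was not shown to differ between genotypes, since the interaction was -0.65 ± 0.35 (adjusted p = 0.672, limma) and -0.90 ± 0.31 (adjusted p = 0.619, limma). The order of the group means was Eln+/+ aorta at 0.20 ± 0.14 (SD, n = 4), Eln+/- aorta at 0.06 ± 0.37, Eln+/+ valve at -0.28 ± 0.42 and Eln+/- valve at -1.08 ± 0.45. Neighbours of the same tissue in that order did not differ beyond the threshold.

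Pde5a, the phosphodiesterase that degrades cyclic GMP and the target of sildenafil, followed the same order with wider spread. Its relative levels were 1.03, 0.54, 0.16 and -0.01 in the Eln+/+ aorta and 0.26, -0.43, 0.30 and 0.01 in the Eln+/- aorta. In the valve they were -0.77, 0.03, 0.38 and -0.76 in Eln+/+ mice and -2.42, -0.99, -2.34 and -0.30 in Eln+/- mice. Replicates 1 and 3 of the Eln+/- valve were the lowest of the 16 arrays, and replicate 4 of that group lay within the range of the Eln+/- aorta. In Eln+/- mice the valve was lower than the aorta by 2.92-fold, a difference of -1.55 ± 0.42 (SE, 95% confidence interval -2.44 to -0.66, adjusted p = 0.0407, limma). The other 2 probe sets gave -1.47 ± 0.32, which passed (adjusted p = 0.0123, limma), and -1.44 ± 0.41, which did not (adjusted p = 0.0513, limma). On the probe set of -1.47 the relative levels in the Eln+/- valve were -1.19, -0.79, -2.15 and -1.38, all below the 0.24, -0.69, 0.50 and 0.31 of the Eln+/- aorta. In Eln+/+ mice the 3 differences were -0.71, -0.75 and -0.63 (adjusted p = 0.544, 0.500 and 0.457, limma), and the interaction of the shown probe set was -0.84 ± 0.59 (adjusted p = 0.728, limma).

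The Pde5a call of the shown probe set rested on single arrays: its adjusted p in limma was 0.101, 0.103 and 0.0892 without Eln+/- aorta replicate 1, 3 or 4, 0.126 and 0.144 without Eln+/- valve replicate 1 or 3, and 0.0511 without Eln+/+ aorta replicate 2, which enters through the shared spread. With the difference of Xist and Y-linked genes as a covariate it was 0.0516, and fitted on the compared arrays alone 0.102 (limma). The Gucy1b1 calls stayed past the threshold without any 1 of the 16 arrays, and so did the Pde5a probe set of -1.47.

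Npr1, the receptor that answers atrial and B-type natriuretic peptide by making cyclic GMP, had relative levels of 0.47, 0.58, 0.89 and 0.55 in the Eln+/+ aorta and 0.98, -0.12, 0.54 and 0.57 in the Eln+/- aorta. In the valve they were -0.16, -0.22, -0.53 and -0.29 in Eln+/+ mice and -0.70, 0.11, -0.55 and -0.91 in Eln+/- mice. The Eln+/+ tissues did not overlap, and in Eln+/- mice only replicate 2 of the aorta and replicate 2 of the valve crossed. The valve was lower by 2.01-fold in Eln+/- mice, a difference of -1.01 ± 0.23 (SE, 95% confidence interval -1.49 to -0.52, adjusted p = 0.0168, limma). The difference in Eln+/+ mice was -0.92 ± 0.23 and did not pass (adjusted p = 0.0775, limma). The interaction was -0.08 ± 0.32 (95% confidence interval -0.77 to 0.61, adjusted p = 0.963, limma). Npr1 was the member of lowest p in Eln+/+ mice, where 0 of 20 member probe sets and 0.946% of all probe sets passed in either direction, and where 2 of the 20 and 11.8% of all had an unadjusted p under 0.05 (limma). Those 2, Npr1 and the shown probe set of Gucy1a2, were also the ones whose Eln+/+ tissues did not overlap, against 7.68% of all probe sets. Calls of Npr1 moved with the arrays used. In Eln+/- mice the adjusted p was 0.0604, 0.0548 and 0.0505 without aorta replicate 1, valve replicate 1 or valve replicate 3 (limma), and in Eln+/+ mice it was 0.0345 and 0.0407 without Eln+/- aorta replicate 2 or Eln+/- valve replicate 2, again through the shared spread. Fitted on the compared arrays alone, the Npr1 difference passed in Eln+/+ mice (adjusted p = 0.0288, limma) and not in Eln+/- mice (adjusted p = 0.0867, limma).

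**Figure D2:**
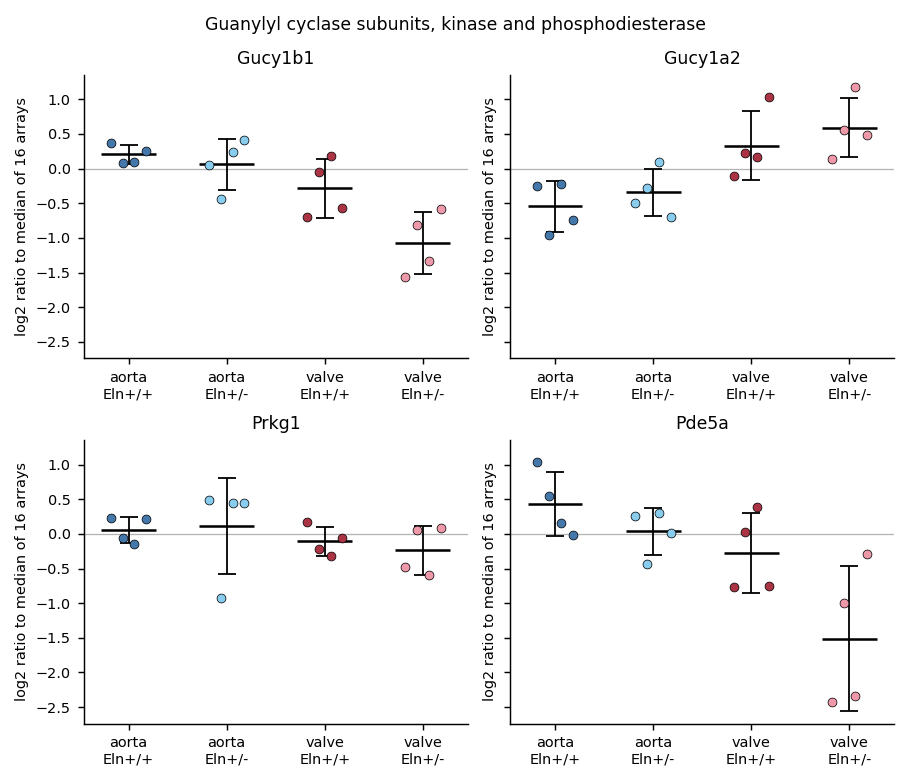
Log2 ratio to the median of the 16 arrays (y axis, the same range in each panel) for Gucy1b1, Gucy1a2, Prkg1 and Pde5a on each array; points are arrays in replicate order in the 4 groups, horizontal bars are means and error bars are 1 SD, n = 4. Gucy1b1 and Pde5a have their lowest points in the Eln+/- valve, down to -1.56 and -2.42, while Gucy1a2 is above 0 on all 4 arrays of that group.

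The smooth muscle marker mean was also lower in the valve than in the aorta of Eln+/- mice, at -0.92 against 0.04. Of the 12 smooth muscle markers 5 were lower in the valve than in the aorta of Eln+/- mice, with differences of -2.18 for Acta2, -1.60 for Mylk, -1.48 for Myh11, -1.39 for Synpo2 and -1.25 for Ppp1r14a, and 1 was higher, Des, at 2.73, a gene that heart muscle also uses. In the same comparison 2 of 12 endothelial markers were higher, Kdr and Eng. Of the 12 differences 10 were positive, while Pecam1, at -0.86, and Vwf, at -0.11, were negative and not called. With the smooth muscle mean as a covariate the differences in Eln+/- mice became -0.51 for Gucy1b1, -0.47 for Pde5a and -0.72 for Npr1, and 0 of 20 member probe sets passed (adjusted p = 0.358, 0.673 and 0.323, limma). With the endothelial mean as a covariate they became -0.83, -1.05 and -0.56, and again 0 of 20 passed (adjusted p = 0.212, 0.372 and 0.309, limma). Of all 45037 probe sets 298 passed with the smooth muscle covariate and 555 with the endothelial one, against 2615 without a covariate. The loss of calls was thus not particular to the members. Both lists differ between the tissues themselves, so tissue and marker mean cannot be told apart in these fits.

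In the valve Gucy1b1 ran closest, among the members, to Pde5a. Over the 8 valve arrays their Pearson correlation was 0.97 and their Spearman correlation 0.98, and Pearson's was 0.95 over the 6 arrays left without the 2 farthest from the median of Gucy1b1. Over the 8 aorta arrays it was 0.59, with a Spearman correlation of 0.19, and there Gucy1b1 had larger Pearson correlations with Prkg1, at 0.85, with Npr3, at -0.78, and with Nos3, at -0.70. Eln+/- aorta replicate 2 held the lowest aorta values of Gucy1b1, -0.44, and Prkg1, -0.92. It also held the highest aorta values of Npr3, 1.46, and Nos3, 0.58, and these correlations were not computed without it. Gucy1b1 also ran with the smooth muscle mean (aorta 0.88, valve 0.89), and so did Pde5a (aorta 0.69, valve 0.91), although its aorta value fell to 0.25 without the 2 arrays of most distant smooth muscle mean. Other lists ran about as strongly with both genes in the valve: the cardiac muscle mean had -0.88 with each, the fibroblast mean 0.75 with Gucy1b1 and 0.80 with Pde5a, the mesothelium mean 0.80 and 0.68, and the endothelial mean -0.77 and -0.72. In the aorta Gucy1b1 had -0.86 with the macrophage mean. That mean was highest on Eln+/- aorta replicate 2, at 1.01, and the correlation was not computed without this array. With the smooth muscle mean Npr1 had 0.80 in the aorta, which turned to -0.53 without the 2 arrays of most distant smooth muscle mean, and 0.27 in the valve. With the endothelial mean it had -0.76 in the aorta and -0.60 in the valve. Without the 2 arrays of most distant endothelial mean in each tissue these were -0.52 and -0.58. These correlations are descriptions: the arrays of a tissue share both genotypes, and the marker mean and the gene share the array.

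The alpha subunit Gucy1a2, which forms an alternative dimer with Gucy1b1, had relative levels of -0.25, -0.96, -0.23 and -0.74 in the Eln+/+ aorta and -0.49, -0.28, 0.10 and -0.70 in the Eln+/- aorta. In the valve they were -0.11, 0.23, 0.16 and 1.04 in Eln+/+ mice and 0.14, 0.56, 1.17 and 0.48 in Eln+/- mice. The tissues did not overlap in either genotype. Valve minus aorta was 0.93 ± 0.27 (SE) in Eln+/- mice (adjusted p = 0.0557, limma) and 0.87 ± 0.27 in Eln+/+ mice (adjusted p = 0.185, limma), and neither passed. In Eln+/- mice it passed without Eln+/- aorta replicate 3 (adjusted p = 0.0482, limma) or without Eln+/+ valve replicate 4 (adjusted p = 0.0315, limma). The second probe set, whose median value was 0.458, gave 0.23 ± 0.14 in Eln+/- and 0.09 ± 0.14 in Eln+/+ mice. The other alpha subunit, Gucy1a1, the neighbouring protein-coding gene of Gucy1b1, gave -0.62 ± 0.24 in Eln+/- mice (adjusted p = 0.158, limma) and -0.26 ± 0.24 in Eln+/+ mice.

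Prkg1, the kinase that cyclic GMP activates in smooth muscle, was not called in any comparison with all arrays. Its shown probe set had relative levels of 0.49, -0.92, 0.44 and 0.45 in the Eln+/- aorta and -0.47, 0.06, -0.60 and 0.08 in the Eln+/- valve. Replicate 2 stood apart from the other 3 aorta arrays of its group. It is also the array on which the smooth muscle mean was lowest in the aorta, at -0.79, and the T cell mean highest. The macrophage, erythroid, mesothelium and skeletal muscle means were highest in the aorta there too, at 1.01, 2.60, 1.00 and 0.20. So was the endothelial mean, at 0.20, although it was nearly as high on Eln+/+ aorta replicate 4, at 0.17. In the fit with array weights Eln+/- aorta replicate 2 had the lowest weight of the 16 arrays, 0.44. The part of these cells in the value was not tested. Valve minus aorta in Eln+/- mice was -0.35 ± 0.27 (SE, adjusted p = 0.554, limma) with that array and -0.69 without it (adjusted p = 0.0322, limma). The second probe set gave -0.56 ± 0.21 (adjusted p = 0.147, limma). In Eln+/+ mice the 2 probe sets differed in sign, at -0.17 and 0.16.

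The synthases did not pass in any comparison. Nos3, which vascular endothelium expresses, had relative levels of -0.19, 0.58, -0.61 and -0.80 in the Eln+/- aorta, the widest spread of its 4 groups, and of 0.29, -0.05, 0.38 and 0.21 in the Eln+/+ valve. The 0.58 was on Eln+/- aorta replicate 2, the array described for Prkg1. The groups of Nos3 overlapped throughout. Valve minus aorta was 0.25 ± 0.23 (SE, 95% confidence interval -0.23 to 0.74, adjusted p = 0.625, limma) in Eln+/- mice and 0.20 ± 0.23 (adjusted p = 0.786, limma) in Eln+/+ mice. Over 8 arrays it had Pearson correlations of 0.30 (aorta) and 0.27 (valve) with the endothelial mean. Nos2, the form that macrophages induce in inflammation, stayed between -0.46 and 0.38 on all 16 arrays. The shown probe set of Nos1 stayed between -0.55 and 0.25. Their SD over the arrays, 0.23 for Nos2 and 0.24 for Nos1, lay at the 26.0th and 30.7th percentile of all probe sets, against the 97.9th for Pde5a and the 89.2nd for Gucy1b1. The other 3 probe sets of Nos1 were at or below the 9.93rd percentile. On 1 of them the Eln+/- aorta lay below the Eln+/+ aorta without overlap, at -0.03, -0.41, -0.22 and -0.02 against 0.15, 0.04, -0.02 and 0.07, a difference of -0.23 ± 0.14 (adjusted p = 0.892, limma).

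Npr2, the receptor for C-type natriuretic peptide, stayed between -0.61 and 0.40, and valve minus aorta was -0.13 ± 0.19 (SE) in Eln+/+ and -0.01 ± 0.19 in Eln+/- mice (adjusted p = 0.846 and 0.982, limma). Npr3, the clearance receptor, was the most scattered receptor. Its shown probe set had relative levels of -0.52, 0.21, -0.94 and -0.88 in the Eln+/+ aorta, -0.88, 1.46, -0.10 and -0.80 in the Eln+/- aorta, 0.34, -0.35, 0.27 and 1.06 in the Eln+/+ valve and 0.57, 0.09, 0.27 and -0.67 in the Eln+/- valve. The 1.46 was on Eln+/- aorta replicate 2, the array described for Prkg1. Every pair of groups overlapped. Valve minus aorta was 0.86 ± 0.46 in Eln+/+ mice (adjusted p = 0.481, limma) and 0.14 ± 0.46 in Eln+/- mice (adjusted p = 0.914, limma). The other 2 probe sets of Npr3 gave 0.11 and 0.32 in Eln+/+ mice and 0.22 and 0.12 in Eln+/- mice. Of the 3 natriuretic receptors a tissue call was made for Npr1 alone, and the differences between receptors were not tested.

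**Figure D3:**
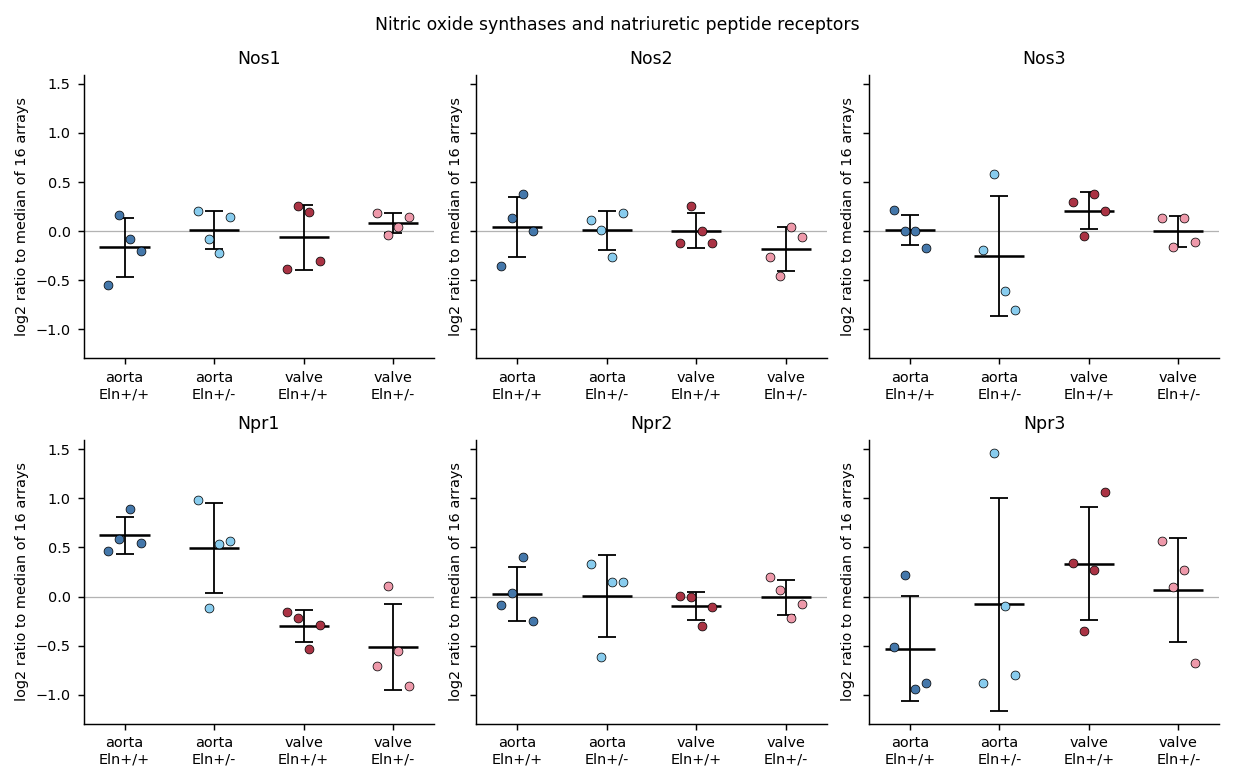
Log2 ratio to the median of the 16 arrays (y axis, the same range in each panel) for the nitric oxide synthases and the natriuretic peptide receptors on each array; points are arrays in replicate order in the 4 groups, horizontal bars are means and error bars are 1 SD, n = 4. In the Npr1 panel the Eln+/+ tissues do not overlap, while replicate 2 of the aorta and replicate 2 of the valve cross in Eln+/- mice, and Npr3 reaches from -0.94 to 1.46.

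The effect of losing 1 Eln copy was compared within each tissue. In the aorta 0 of 20 member probe sets passed, as did 0% of all probe sets, while 0 of the 20 and 5.51% of all probe sets had an unadjusted p under 0.05 (limma). The aortic differences of the shown probe sets ran from -0.39 ± 0.42 (SE) for Pde5a to 0.45 ± 0.46 for Npr3, with adjusted p-values in limma from 0.907 to 0.995. The confidence interval for Gucy1b1 was -0.66 to 0.38 and that for Npr1 -0.62 to 0.36. Values did not overlap in 2 of the 20 member probe sets, against 2.84% of all probe sets: 1 of Nos1, given above, and the second one of Gucy1a2.

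In the valve 0 of 20 member probe sets passed, again as did 0% of all probe sets, while 5 of the 20 and 8.6% of all probe sets had an unadjusted p under 0.05 (limma). Those 5 were the probe sets of Gucy1b1, with differences of -0.79 ± 0.24 (SE, 95% confidence interval -1.31 to -0.27) and -0.85 ± 0.22 (adjusted p = 0.423 and 0.373, limma), and Pde5a. The 3 probe sets of Pde5a gave -1.23 ± 0.42, -1.04 ± 0.41 and -1.03 ± 0.32 (adjusted p = 0.431, 0.492 and 0.423, limma). The smooth muscle mean moved with both genes here too, and with it as a covariate among the 8 valve arrays the differences became -0.28 for Gucy1b1 and -0.19 for Pde5a (adjusted p = 0.967 and 0.985, limma). With the heart muscle marker mean in its place they became -0.16 and 0.07 (adjusted p = 0.987 and 0.998, limma). In the valve the smooth muscle mean was itself -0.20 in Eln+/+ and -0.92 in Eln+/- mice, and the heart muscle mean 1.08 and 1.99. Genotype and marker mean thus cannot be told apart in these fits. The other shown differences in the valve lay between -0.27 for Npr3 and 0.26 for Gucy1a2. The median over the 20 probe sets was -0.16 against 0.01 over all probe sets, and 14 of the 20 were negative. The groups overlapped in all 20, where 5.04% of all probe sets did not.

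The interaction asks whether the genotype difference was another one in the valve than in the aorta. Of the 20 probe sets 0 passed, as did 0% of all probe sets, while 2 of the 20 and 7.72% of all probe sets had an unadjusted p under 0.05 (limma). The member of lowest p was the second probe set of Gucy1b1, given above. Prkg1 came next, at -0.71 ± 0.30 (SE) on its second probe set (adjusted p = 0.631, limma). Relative levels there were 0.39, -0.18, -0.26 and -0.31 in the Eln+/+ aorta and -0.04, 0.28, 0.19 and 0.36 in the Eln+/- aorta. In the valve they were -0.24, 0.06, 0.41 and 0.04 in Eln+/+ mice and -0.41, -0.17, -0.91 and 0.05 in Eln+/- mice. The genotypes overlapped in each tissue. The shown probe set of Prkg1 gave -0.18 ± 0.38.

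**Figure D4:**
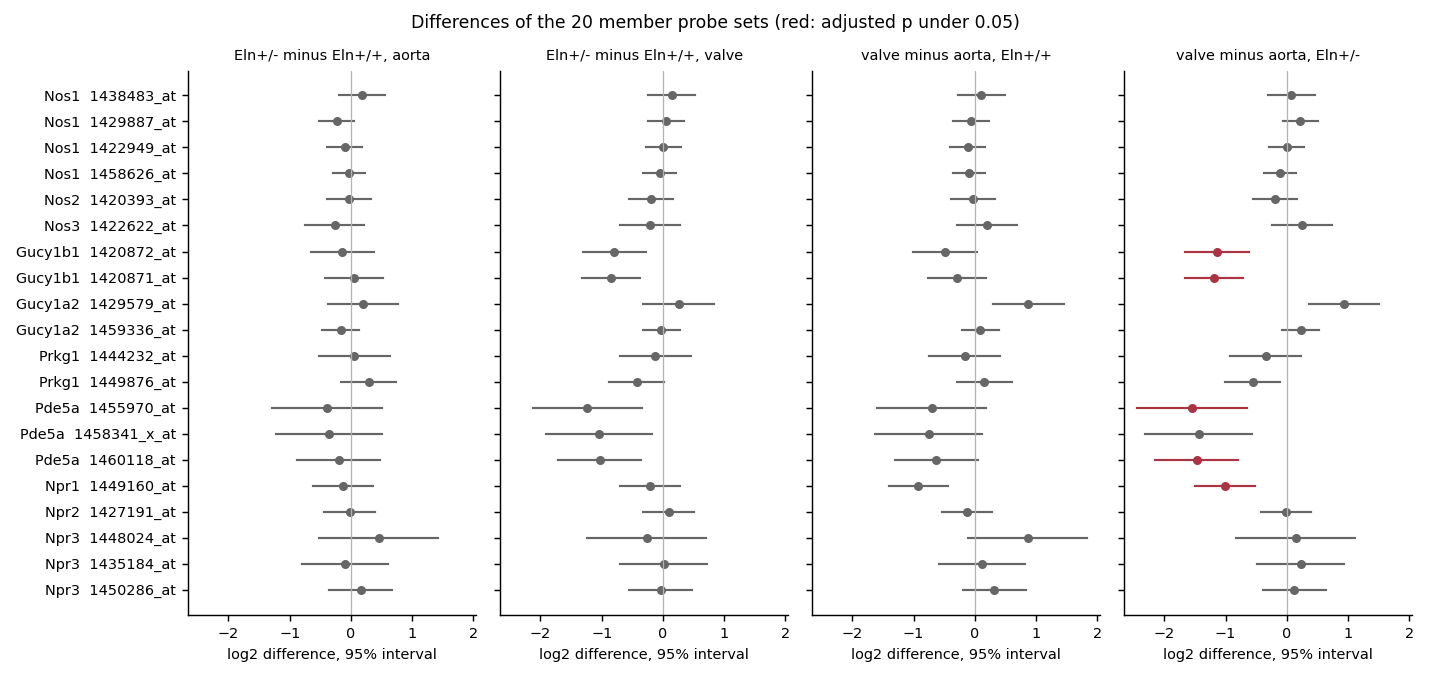
Log2 differences (x axis) of the 20 member probe sets (rows, by gene and probe set) in the 4 comparisons of tissue and genotype; points are differences, bars are 95% confidence intervals of the limma fit, n = 4 arrays a group, and red marks an adjusted p under 0.05. The 5 red points all belong to valve minus aorta in Eln+/- mice, at -1.14 and -1.19 for Gucy1b1, -1.55 and -1.47 for Pde5a and -1.01 for Npr1.

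The wider pathway list held 77 further genes of which 66 were measured. In Eln+/+ mice 4 were higher in the valve and 0 lower, where 1.19% of all genes were higher and 0.126% lower. In Eln+/- mice 7 were higher and 5 lower, where 4.41% of all genes were higher and 2.65% lower. The median difference of the 66 genes was 0.00 in Eln+/+ and 0.05 in Eln+/- mice, against -0.05 and 0.00 over all genes.

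The genes that were higher stood mostly on the natriuretic peptide side or in heart muscle calcium handling. Nppa, the atrial natriuretic peptide and ligand of Npr1, had a difference of 6.79 ± 0.73 (SE) in Eln+/+ and 6.68 ± 0.73 in Eln+/- mice (adjusted p = 0.000384 and 0.000149, limma). Corin, the protease that processes it, had 2.74 ± 0.43 and 4.05 ± 0.43. Pln, the phospholamban that cyclic nucleotide kinases phosphorylate, had 3.36 and 4.57, and Atp2a2, the calcium pump it restrains, 2.01 and 3.12, although further probe sets of Atp2a2 were not called and 1 of them gave -0.06 in Eln+/- mice. Nppb, the B-type peptide, was called in Eln+/- mice alone, at 2.31 ± 0.35 (adjusted p = 0.00128, limma), and its interaction did not pass, at 1.51 ± 0.50 (adjusted p = 0.619, limma). Hcn2, a pacemaker channel gated by cyclic nucleotides, had 0.86 ± 0.17 and Nostrin, which binds Nos3 and moves it within the cell, 0.75 ± 0.18 in Eln+/- mice. Nppa and Nppb also stand in the cardiac muscle marker list, all 16 genes of which were higher in the valve of Eln+/- mice. The part of heart muscle in these differences was not tested. In Eln+/- mice the receptor Npr1 was lower in the valve than in the aorta, and the transcripts of its ligands Nppa and Nppb were higher.

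The 5 that were lower in Eln+/- mice included a potassium channel subunit, a phosphodiesterase and a phosphatase subunit of smooth muscle. Kcnmb1, the beta subunit of the calcium-activated potassium channel of smooth muscle, had -2.07 ± 0.51 (SE, adjusted p = 0.0264, limma), and its second probe set -1.67. Pde3a, a phosphodiesterase that cyclic GMP inhibits, had -1.64 ± 0.24 (adjusted p = 0.00103, limma), while its other 2 probe sets gave -0.92 and -0.87 and were not called. Ppp1r12a, the targeting subunit of myosin phosphatase and a partner of Prkg1, had -1.48 ± 0.29 (adjusted p = 0.00707, limma), Dynll1, the dynein light chain that binds Nos1, had -1.01 ± 0.22 and Csrp2, a LIM protein of smooth muscle, -0.99 ± 0.23. Of these, Pde3a was at -0.72 ± 0.24 in Eln+/+ mice and did not pass (adjusted p = 0.226, limma). Mrvi1, the Prkg1 substrate on the calcium store, was at -1.41 ± 0.47 in Eln+/- mice and did not pass (adjusted p = 0.0977, limma). Kcnma1, the pore subunit of the same potassium channel, was at -0.77 ± 0.47. With the smooth muscle mean as a covariate 4 of the 66 genes passed in Eln+/- mice in place of 12, and 298 of all probe sets in place of 2615.

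**Figure D5:**
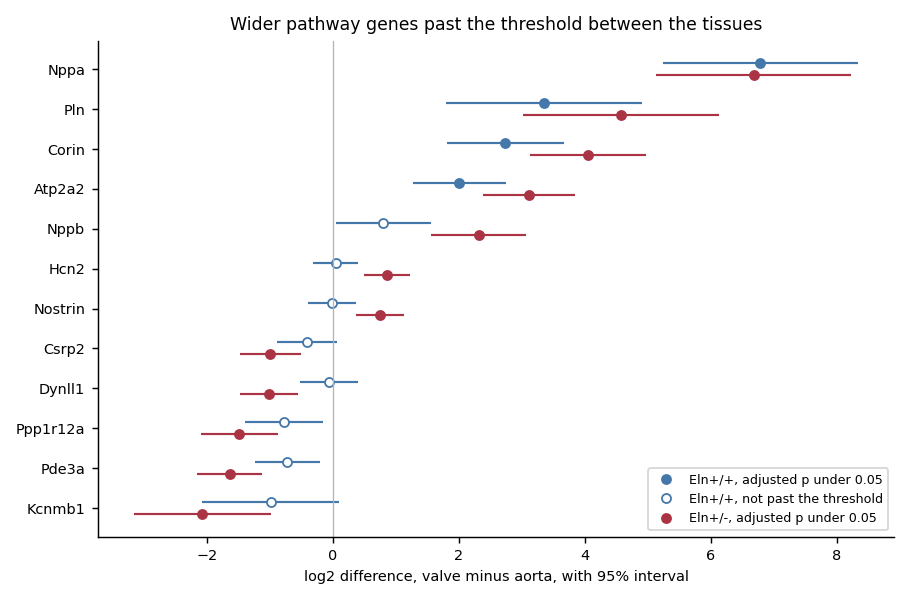
Log2 difference, valve minus aorta (x axis), in Eln+/+ and Eln+/- mice for the 12 pathway genes past the threshold in either genotype; filled points passed the adjusted threshold and open points did not, and bars are 95% confidence intervals, n = 4 arrays a group. Nppa lies farthest to the right, at 6.79 and 6.68, and Kcnmb1 farthest to the left, at -2.07 in Eln+/- mice.

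Between genotypes 0 of the 66 pathway genes passed in either tissue or in the interaction, while 2 in the aorta, 11 in the valve and 8 in the interaction had an unadjusted p under 0.05 (limma). The 4 of lowest p in the aorta were Nostrin at -0.41 ± 0.18 (SE), Kcnma1 at -1.05 ± 0.47, Hsp90aa1 at 0.45 ± 0.24 and Adh5 at 0.43 ± 0.24, all with an adjusted p of 0.885 (limma). In the valve they were Nppb at 1.49 ± 0.35, Hcn2 at 0.68 ± 0.17, Dynll1 at -0.73 ± 0.22 and Pde3a at -0.76 ± 0.24, with adjusted p-values of 0.368, 0.368, 0.423 and 0.423 (limma). For the interaction they were Hcn2 at 0.81 ± 0.24, Dynll1 at -0.95 ± 0.31, Nppb, given above, and Nostrin at 0.76 ± 0.25, all with an adjusted p of 0.619 (limma).

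Across all 18193 genes, the patterns most like those of the members were ranked by the smaller of the Pearson correlations over the 8 aorta and over the 8 valve arrays. For Gucy1b1 the highest were Supt20 at 0.93, Galnt16 at 0.90 and Scube3 at 0.90. For Pde5a they were Tmem47 at 0.86, Msn at 0.83 and Col1a1 at 0.83, and for Npr1 Mafk at 0.86, Slc48a1 at 0.84 and Smarcd3 at 0.83. For Gucy1a2 they were Il10rb, Dmxl1 and Crlf2, between 0.81 and 0.82, and for Prkg1 Dip2a, Sde2 and 4930573G07Rik, between 0.81 and 0.89. For the synthases the highest was Klhl1 with Nos1 at 0.84, Tbc1d2 with Nos2 at 0.83 and Hlx with Nos3 at 0.83, and for the remaining receptors Gm11110 with Npr2 at 0.87 and Rab5a with Npr3 at 0.88. The arrays behind each value share tissue and marker content, and no member was among the 3 genes of another. Each value is among the highest of 18193 genes over 8 arrays a tissue. The height that chance alone would give was not tested. The ranking was not repeated without Eln+/- aorta replicate 2, the array described for Prkg1.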

How the data were processed

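RNA of each specimen was amplified, labelled with biotin and hybridised to an array of its own, and RMA is named in the submitters' processing notes. The deposited values are linear ratios, as read from the values themselves: 39780 of the tested probe sets had a median of 1 across the 16 arrays (tolerance 1e-06) and are thus relative to their own median. The median was below 1 in 5257, whose divisor is not given in the sources used here, and above 1 in 0. They hold no signal level, so brightness and background cannot be judged. Aligner, build and annotation version are not given in the sources used here.

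The 64 control probe sets were left out. A limma model (limma 3.58.1, R 4.3.3) with 4 group means was fitted to log2 ratios of 45037 probe sets, two-sided, with Benjamini-Hochberg adjustment, a threshold of 0.05 and 12 residual degrees of freedom, and was checked on simulated data. The number of arrays, 4 a group, limits the precision. The rule for named genes takes every member, every pathway gene past the threshold or the 4 of lowest p where none passed, and the 3 genes most like each member. The members, the pathway and marker lists and this rule were chosen with earlier results of these data known. Alternatives varied the arrays, scaling, pseudocount, filter, blocks and covariates. Promoters were found in the reference table for 8 of the 10 members.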

Additional observations from a re-analysis of the deposited data

Results flagged for a closer look

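Among the 80 groups of 4 arrays formed by the 20 member probe sets, 4 held an array far from the other 3, and chance alone gives about 5% of groups. Prkg1 on its shown probe set was at -0.92 on Eln+/- aorta replicate 2, with the other 3 arrays between 0.44 and 0.49. Nos1 supplied the other 3. On 1 probe set Eln+/+ valve replicate 2 was at 0.38, with the others between -0.15 and -0.09. On another, Eln+/+ aorta replicate 4 was at -0.08 with the others at 0.16, and Eln+/- aorta replicate 4 was at 0.30 with the others between -0.02 and 0.01. The Nos1 gaps belong to probe sets of low spread, and none of these probe sets was called in any comparison with all arrays.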

How the results depend on the processing

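No member difference that was called changed direction under the alternatives run. Fitted on the compared arrays alone, 1 member probe set and 389 of all probe sets passed between tissues in Eln+/+ mice. In Eln+/- mice 3 member probe sets, 7 pathway genes and 1602 of all probe sets passed in that fit. Array weights gave 1 member probe set in Eln+/+ mice, and 545 of all probe sets against 426. Between genotypes in the valve, 1 of all probe sets passed with array weights, with log2(value + 0.1) and without the probe sets of median below 1. Quantile normalization gave 692 probe sets in Eln+/+ mice, against 426. The endothelial covariate left 1 pathway gene and 100 probe sets in Eln+/+ mice, and 0 member probe sets, 7 pathway genes and 555 probe sets in Eln+/- mice. The smooth muscle covariate, chosen after seeing the data, left 185 probe sets in Eln+/+ mice, and 0 member probe sets, 4 pathway genes and 298 probe sets in Eln+/- mice. Without Eln+/- aorta replicates 2 and 4, 1 member probe set and 575 of all probe sets passed in Eln+/+ mice. In Eln+/- mice 1578 of all probe sets passed in that fit, against 2615. The cause of these shifts was not tested. Leaving out 1 array at a time gave 0 to 1 member probe sets in Eln+/+ and 3 to 7 in Eln+/- mice, with 3 without Eln+/- aorta replicate 1, Eln+/- valve replicate 1 or Eln+/- valve replicate 3, and 7 without Eln+/- aorta replicate 2 or Eln+/+ valve replicate 4. Pathway genes ranged from 3 to 5 and from 10 to 16, all probe sets from 173 to 553 and from 1366 to 3457, and all probe sets between genotypes from 0 to 1 in the aorta and 0 to 11 in the valve. The other counts stayed at 0.

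Replicate numbers did not pair the arrays: same-numbered arrays had correlations of deviations from -0.15 to 0.07. Of the 16 arrays 4 correlated best with their own number in the other tissue and 3 in the other genotype. With the number as a replicate block 4 member probe sets and 2041 probe sets passed in Eln+/- mice and 297 probe sets in Eln+/+ mice. With pairs of genotype and number as the block, 3 member probe sets and 2062 of all probe sets passed in Eln+/- mice. The shown probe set of Pde5a lost its call under both blocks (adjusted p = 0.0793 and 0.0895, limma), and Npr1 lost its call under the second (adjusted p = 0.0838, limma).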
